A study of Mus musculus with 15 samples.

Results

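The genes described here encode the enzymes and carriers of fatty acid oxidation and of branched-chain amino acid breakdown, 41 genes of the 26301 gene numbers counted. They were chosen by name: 24 of mitochondrial and peroxisomal fatty acid oxidation and 17 of the breakdown of leucine, isoleucine and valine. They were measured by RNA-seq in 15 libraries of 3T3-L1 cells, a line of mouse preadipocytes, on day 2 after differentiation was induced with 1.67 µM insulin, 1 µM dexamethasone and 115 µg/mL IBMX. Every group had 3 replicates. Control cells (sh-Empty) carried a retroviral vector without a hairpin against Jmjd1a, and JMJD1A-KD cells (sh-Jmjd1a) stably carried a hairpin against it. In the rescue set, JMJD1A-KD cells were infected again to express LacZ as the control protein, JMJD1A(WT), the wild-type enzyme, or JMJD1A(H1122A), whose iron-binding site is mutated. These are called LacZ, WT and H1122A cells below. All 5 groups thus carried a retroviral vector and came from cells under antibiotic selection, and all 3 rescue groups carried the hairpin. JMJD1A, encoded by Kdm3a, removes methyl groups from histone H3 lysine 9 and needs iron to do so. The study asked which genes depend on this activity when adipocytes form.

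Fatty acids enter mitochondria as carnitine esters, made by carnitine palmitoyltransferase 1 and turned back into acyl-CoA by carnitine palmitoyltransferase 2. Acyl-CoA dehydrogenases, hydratases, hydroxyacyl-CoA dehydrogenases and thiolases then shorten the chain in a repeating cycle, and the electrons pass through electron transfer flavoprotein to the respiratory chain. Leucine, isoleucine and valine are first transaminated by branched-chain aminotransferases and then decarboxylated by a dehydrogenase complex. The distal enzymes of each amino acid resemble those of fatty acid oxidation. Adipocytes take up and break down branched-chain amino acids as they mature, and the carbon can serve lipid synthesis.

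Total counts per library ranged from 11437058 to 25523148, the highest in WT replicate 3. Replicates of a group differed by more than counting noise, at 2.06 to 5.22 for the chi-square divided by its degrees of freedom. The sources used here do not state whether replicates came from separate cultures, so p-values cover only the spread between these libraries, which may be technical. The level of Kdm3a was 174 ± 7.21 CPM (SD, n = 3; CPM are counts scaled to library size) in sh-Empty and 130.2 ± 4.45 CPM in sh-Jmjd1a cells, a log2 fold change of -0.42 (SE 0.05) without overlap of the libraries. In the rescue set it was 120 ± 2.66 CPM in LacZ cells, 1698 ± 70.8 CPM in WT cells and 2209 ± 88.7 CPM in H1122A cells. Markers of leukocytes, endothelium, epithelium and muscle (Ptprc, Pecam1, Epcam, Myod1 and Myog) summed to at most 0.589 CPM in any library. In bulk RNA, fewer cells of a type and less RNA per cell cannot be told apart.

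The upstream sequences of 5 members are shown because these members carry the results that follow. Acadm, Aldh6a1 and Bcat2 met all 3 calls that the study used to define its targets, whereas Bcat1 and Cpt1a were higher in sh-Jmjd1a cells. Each is the 250 bases before the annotated start in RefSeq on GRCm38.p6, written 5′ to 3′, and for Aldh6a1, Bcat2 and Bcat1 the outer of 2 starts was taken. Capitals mark AGGTCA, the half-site of PPAR and other nuclear receptors, GGGCGG, the GC box, and CCAAT, each on either strand.
Acadm (chr3:153944644-153944893, minus strand): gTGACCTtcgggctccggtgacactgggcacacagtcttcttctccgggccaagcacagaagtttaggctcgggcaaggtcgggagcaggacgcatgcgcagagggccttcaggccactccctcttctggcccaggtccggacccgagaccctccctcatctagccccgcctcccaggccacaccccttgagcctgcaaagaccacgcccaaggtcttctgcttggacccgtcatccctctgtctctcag
Aldh6a1 (chr12:84451025-84451274, minus strand): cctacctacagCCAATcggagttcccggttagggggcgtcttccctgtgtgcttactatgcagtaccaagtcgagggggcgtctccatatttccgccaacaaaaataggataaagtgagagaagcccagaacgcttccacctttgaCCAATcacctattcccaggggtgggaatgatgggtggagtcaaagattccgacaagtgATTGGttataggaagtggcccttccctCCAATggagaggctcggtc
Bcat2 (chr7:45569903-45570152, plus strand): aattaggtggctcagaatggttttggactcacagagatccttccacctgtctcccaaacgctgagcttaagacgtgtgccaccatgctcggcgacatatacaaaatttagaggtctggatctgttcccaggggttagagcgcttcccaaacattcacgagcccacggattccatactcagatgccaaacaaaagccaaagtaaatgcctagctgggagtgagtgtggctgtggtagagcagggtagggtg
Bcat1 (chr6:145076158-145076407, minus strand): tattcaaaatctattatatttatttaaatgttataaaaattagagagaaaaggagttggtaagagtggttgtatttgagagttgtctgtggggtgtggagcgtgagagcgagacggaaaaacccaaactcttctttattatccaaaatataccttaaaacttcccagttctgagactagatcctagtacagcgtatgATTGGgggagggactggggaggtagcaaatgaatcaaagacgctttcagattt
Cpt1a (chr19:3323051-3323300, plus strand): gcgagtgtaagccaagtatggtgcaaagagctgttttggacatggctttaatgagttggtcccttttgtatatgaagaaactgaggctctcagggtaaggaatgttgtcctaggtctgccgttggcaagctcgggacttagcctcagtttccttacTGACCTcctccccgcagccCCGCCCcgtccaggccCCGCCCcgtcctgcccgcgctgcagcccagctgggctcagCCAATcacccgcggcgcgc

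The Aldh6a1 window shown held 4 CCAAT boxes and neither of the other motifs, whereas the window of its inner start, which is not shown, held 1 AGGTCA half-site 94 bases before the start and 1 CCAAT box. The Acadm window held 1 AGGTCA half-site at its far end, and the Cpt1a window held 1 half-site, 2 GC boxes and 1 CCAAT box. The Bcat1 window shown held 1 CCAAT box, and that of its inner start 1 AGGTCA half-site 174 bases before the start. The Bcat2 window held none of the 3 motifs. RefSeq entries were found for 34 of the 41 members, with 39 starts, and for all genes the table held 32851 starts. The latter include genes with too few counts to be tested here, so they are not matched to the members in expression. The Hadha and Hadhb windows overlap, and 1 GC box lies in both. The GC box was present in 21 of the 39 member windows (53.8%) and in 32.7% of all windows. CCAAT was present in 19 (48.7%) against 33.8%, and AGGTCA in 8 (20.5%) against 14.02%. The DR1 element, a pair of AGGTCA half-sites with 1 free base between them that PPAR binds together with RXR, was in none of the 39 windows and in 0.0335% of all windows. TATAAA was in 2 (5.13%) against 12.4%. The median GC content was 57.6% in member windows and 52.4% in all windows. Motif matches are descriptions of the letters, and nothing about binding was measured here.

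In sh-Jmjd1a cells most members were lower than in sh-Empty cells. Of the 39 members with enough counts to be tested, 29 were lower and 4 were higher at an adjusted p under 0.05, and 6 were not called. Over all 12272 genes tested, 23.9% were lower and 22.3% were higher. The test was the quasi-likelihood F test of edgeR, adjusted over all genes by the Benjamini-Hochberg procedure, and changes are given as log2 fold change with its standard error (SE). The median log2 fold change was -0.38 for the 39 members and -0.003 for all genes tested. The 3 libraries of each group did not overlap for 33 members, against 52.9% of all genes. All 33 called members were among these. Most changes were modest. The absolute log2 fold change of called members ranged from 0.17 to 1.42, and 3 members (Crat, Aldh6a1 and Bcat1) reached 1. Of the fatty acid oxidation genes, 16 of 22 tested were lower and 3 were higher, with a median of -0.32. Of the branched-chain genes, 13 of 17 were lower and 1 was higher, with a median of -0.46.

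**Figure D1:**
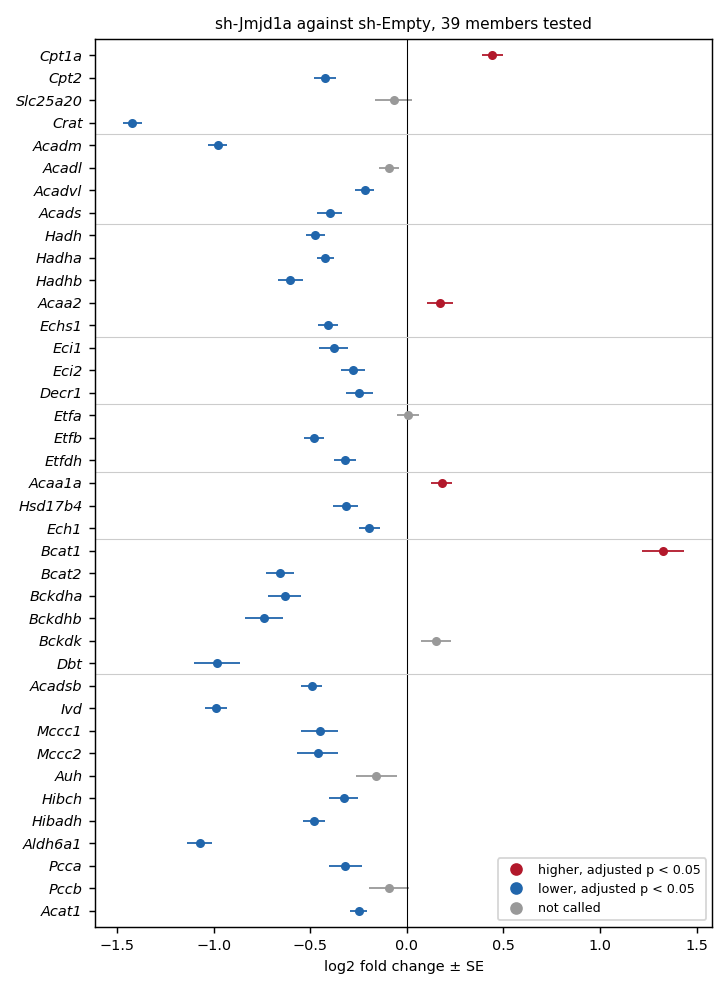
Log2 fold change of each of the 39 tested members in sh-Jmjd1a against sh-Empty cells (points) with its standard error (bars), in the order of the pathway, with grey lines between roles. Most points lie left of 0, whereas Bcat1 (1.33) and Cpt1a (0.44) lie farthest right and Crat (-1.42) farthest left.

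The genes of the carnitine shuttle moved in both directions. Crat encodes carnitine acetyltransferase, which moves acetyl groups between coenzyme A and carnitine. Its level in sh-Empty cells was 218, 211 and 214 CPM, and in sh-Jmjd1a cells it was 83.5, 79.4 and 77.5 CPM. The sh-Jmjd1a libraries were all far below, and the log2 fold change of -1.42 (SE 0.05, adjusted p = 1.2e-19) was the largest decrease among the members. Cpt1a encodes the carnitine palmitoyltransferase 1 of liver and many other tissues, the step at which fatty acid entry is controlled. It was at 95.4, 102 and 89.0 CPM in sh-Empty and at 127, 134 and 128 CPM in sh-Jmjd1a cells, without overlap, and rose by 0.44 (SE 0.05, adjusted p = 8.8e-08). Cpt2, the inner-membrane partner enzyme, was at 93.2, 89.5 and 88.9 CPM and then at 65.7, 73.0 and 63.9 CPM, a log2 fold change of -0.42 (SE 0.06). Slc25a20, the carrier that exchanges acylcarnitine for carnitine, was not called (-0.07, SE 0.10). Cpt1b, the muscle form of carnitine palmitoyltransferase 1, had 0 to 11 counts per library and was not tested.

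The acyl-CoA dehydrogenases differ in the chain length they prefer. Acadm, which takes medium chains, was at 204, 207 and 215 CPM in sh-Empty and at 112, 104 and 102 CPM in sh-Jmjd1a cells. The groups stood far apart, with a log2 fold change of -0.98 (SE 0.05, adjusted p = 4.3e-16). Acads, for short chains, fell by 0.40 (SE 0.06) and Acadvl, for very long chains, by 0.22 (SE 0.05). Acadl, for long chains, was not called (-0.10, SE 0.05). Exons of Acadvl overlap those of Dvl2 on the other strand over 1151 bases, so part of its counts may come from that gene.

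Hadha and Hadhb encode the subunits of the mitochondrial trifunctional protein, which carries out the last 3 steps of the cycle on long chains. They lie head to head on chromosome 5, Hadha at chr5:30444841-30481702 on the minus strand and Hadhb at chr5:30481788-30511133 on the plus strand of mm9, with starts 86 bases apart in GENCODE M1. Hadhb was at 78.6, 73.2 and 76.4 CPM in sh-Empty and at 54.4, 49.6 and 46.6 CPM in sh-Jmjd1a cells. Hadha was at 217, 220.4 and 215 CPM and then at 172, 164 and 152 CPM. Neither gene's groups overlapped, with log2 fold changes of -0.60 (SE 0.06, adjusted p = 8e-09) for Hadhb and -0.42 (SE 0.05, adjusted p = 1e-08) for Hadha. Hadh, the short-chain hydroxyacyl-CoA dehydrogenase, fell by 0.47 (SE 0.05) and Echs1, the short-chain enoyl-CoA hydratase, by 0.41 (SE 0.05). The matrix thiolase Acaa2 went the other way, from 48.1 ± 0.999 to 54.2 ± 3.34 CPM, a log2 fold change of 0.17 (SE 0.07, adjusted p = 0.038) whose call was lost with DESeq2 (adjusted p = 0.098) and when any of 4 libraries was left out in turn.

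The enzymes that prepare unsaturated chains for the cycle all fell. Eci1, an enoyl-CoA isomerase, was at 41.6, 42.9 and 42.6 CPM in sh-Empty and at 33.9, 34.8 and 29.3 CPM in sh-Jmjd1a cells. It fell by 0.38 (SE 0.08, adjusted p = 0.00016). Eci2 fell by 0.28 (SE 0.06) and Decr1, the dienoyl-CoA reductase, by 0.25 (SE 0.07). Of electron transfer flavoprotein, the beta subunit gene Etfb was at 151, 137 and 153 CPM and then at 108, 111 and 97.5 CPM. It fell by 0.48 (SE 0.05, adjusted p = 2.2e-08), whereas the alpha subunit gene Etfa stayed at 93.3 ± 1.93 and 93.8 ± 6.28 CPM, with a log2 fold change of 0.01 (SE 0.06). Etfdh, which hands the electrons on to ubiquinone, fell by 0.32 (SE 0.06).

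All 3 tested peroxisomal members were called, with modest changes in both directions. Hsd17b4, the bifunctional enzyme of peroxisomal oxidation, was at 62.9, 69.01 and 70.04 CPM in sh-Empty and at 54.6, 54.0 and 54.1 CPM in sh-Jmjd1a cells. It fell by 0.32 (SE 0.06, adjusted p = 0.00012). Ech1, a dienoyl-CoA isomerase, fell by 0.19 (SE 0.05, adjusted p = 0.0045), and the call was lost without sh-Empty replicate 1 (adjusted p = 0.0623). Acaa1a, a peroxisomal thiolase, rose by 0.18 (SE 0.06, adjusted p = 0.0087). Reads of Acaa1a cannot be told apart in full from those of its close copy Acaa1b, which had 0 or 1 counts per library. Ehhadh had 0 to 2 counts and was not tested.

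The first step of branched-chain breakdown is catalysed by the aminotransferases encoded by Bcat1, the cytosolic form, and Bcat2, the mitochondrial form, and these genes moved in opposite directions. Bcat1 was at 17.1, 18.9 and 12.8 CPM in sh-Empty and at 39.7, 44.6 and 36.5 CPM in sh-Jmjd1a cells. Bcat2 was at 58.3, 53.5 and 54.4 CPM and then at 37.5, 36.4 and 31.7 CPM. The groups did not overlap for either gene. The log2 fold change was 1.33 (SE 0.11, adjusted p = 2e-10) for Bcat1, the largest increase among the members, and -0.66 (SE 0.07, adjusted p = 1.9e-08) for Bcat2. Per length of exon, the ratio of Bcat1 to Bcat2 went from 0.123 ± 0.0248 in sh-Empty to 0.479 ± 0.0351 in sh-Jmjd1a cells (SD, n = 3). Exons of 10 members overlap those of a gene on the other strand in GENCODE M1, and where counting ignored strand their counts may hold reads of that gene. Besides Acadvl these are Bcat2 (622 bases), Crat (470 bases), Bcat1 (337 bases), Pcca (241 bases), Mccc1 (198 bases), Eci2 (189 bases), Aldh6a1 (99 bases), Hadha (78 bases) and Acaa1a (67 bases).

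The branched-chain keto acid dehydrogenase is the committed step. All 3 of its specific subunit genes fell, Bckdha by 0.63 (SE 0.08), Bckdhb by 0.74 (SE 0.10) and Dbt by 0.98 (SE 0.12). Bckdk, the kinase that inactivates the complex, was not called, at 46.03 ± 5.24 and 51.2 ± 1.89 CPM (log2 fold change 0.15, SE 0.08).

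Of the 11 distal genes, 9 were lower and none was higher. Aldh6a1, the methylmalonate semialdehyde dehydrogenase of valine breakdown, was at 94.5, 104 and 98.5 CPM in sh-Empty and at 44.3, 51.8 and 45.004 CPM in sh-Jmjd1a cells. This was a log2 fold change of -1.07 (SE 0.06, adjusted p = 4.3e-14). Ivd, the isovaleryl-CoA dehydrogenase of leucine breakdown, was at 124, 119 and 116 CPM and then at 62.1, 56.7 and 62.9 CPM, a log2 fold change of -0.99 (SE 0.06). Acadsb, which acts on the short branched chain of isoleucine, fell by 0.49 (SE 0.05). Mccc1 and Mccc2, the subunits of methylcrotonyl-CoA carboxylase, fell by 0.45 (SE 0.10) and 0.46 (SE 0.11). Hibadh and Hibch of the valine branch fell by 0.48 (SE 0.06) and 0.33 (SE 0.08). Pcca, a subunit of propionyl-CoA carboxylase, fell by 0.32 (SE 0.09) and Acat1, a thiolase of isoleucine and ketone metabolism, by 0.25 (SE 0.04). The other carboxylase subunit gene Pccb (-0.09, SE 0.10) and the hydratase gene Auh (-0.16, SE 0.11) were not called.

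Per length of exon, the members spanned a wide range of levels in sh-Empty cells. The unit here is CPM divided by exon length and rescaled, as in TPM. The length joined the exons of all annotated transcripts, used in these cells or not, so the order of genes depends on the annotation. Etfb was highest at 434 ± 22.0 (SD, n = 3), followed by Acadm at 239.9 ± 5.86 and Acadvl at 208 ± 6.77. The lowest of the tested members was Bcat1 at 5.89 ± 1.19, next to Auh at 7.44 ± 0.737, and the spreads of these 2 genes met.

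In the rescue set, few members were higher in WT cells than in LacZ cells. Of the 39 tested, 7 were higher and none was lower, where 4.98% of all 12557 genes were higher and 4.52% were lower. At an unadjusted p under 0.05, 13 members were higher and 2 were lower. The shares of all genes just given are for adjusted p, so they are no background for these counts. The median log2 fold change of the members was 0.05. The 7 were Cpt2, Crat, Acadm, Hadha, Hadhb, Bcat2 and Aldh6a1, with log2 fold changes of 0.13 to 0.39, each smaller in size than the decrease of the same gene in sh-Jmjd1a cells. The groups did not overlap for 19 members, against 23% of all genes. All 7 had been lower in sh-Jmjd1a cells.

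H1122A cells had lower levels than WT cells for 13 members and higher levels for 3, against 11.7% and 12.1% of all genes. The median was -0.09 for members and -0.001 for all genes, and the groups did not overlap for 22 members, against 37% of all genes. The 13 were Crat, Acadm, Acadl, Acadvl, Acads, Hadha, Hadhb, Etfdh, Bcat2, Bckdhb, Ivd, Mccc1 and Aldh6a1. All 4 acyl-CoA dehydrogenases of the fatty acid oxidation members were among them, Acads at -0.24 (SE 0.07), Acadvl at -0.19 (SE 0.05) and Acadl at -0.14 (SE 0.05, adjusted p = 0.048). The related genes Acad9, Acad10 and Acad11, which are not members, were not called lower. Etfdh differed by -0.30 (SE 0.06) and Bckdhb by -0.34 (SE 0.11). The 3 higher members were Slc25a20 (0.26, SE 0.09), Acaa2 (0.21, SE 0.07) and Acaa1a (0.21, SE 0.06). Calls of 8 of these 16 members were lost under some alternative. Those of Acadl, Ivd, Mccc1, Bckdhb and Slc25a20 were lost with DESeq2 (adjusted p = 0.0891, 0.0505, 0.0961, 0.0533 and 0.0602) and without each of several libraries, and that of Acadl in most of the alternatives tried. The call of Acads was lost without H1122A replicate 2 (adjusted p = 0.0890), that of Acaa1a without H1122A replicate 3 (0.0604), and that of Acaa2 without H1122A replicate 1 (0.117) or WT replicate 3 (0.0693). Both comparisons used the same WT libraries, so a high or low value there enters both.

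Between H1122A and LacZ cells 3 members differed, Crat, Etfb and Aldh6a1, all lower in H1122A cells, where 4.46% of all genes were lower and 4.78% were higher. At an unadjusted p under 0.05, 7 members were lower and none was higher. No share of all genes at this threshold was counted, so these counts have no background. The log2 fold changes were -0.26 (SE 0.06, adjusted p = 0.0017) for Crat, -0.27 (SE 0.07, adjusted p = 0.012) for Aldh6a1 and -0.15 (SE 0.05, adjusted p = 0.047) for Etfb. The groups did not overlap for 8 members, against 25.1% of all genes. The call of Crat held under every alternative run, whereas those of Aldh6a1 and Etfb were lost under some.

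**Figure D2:**
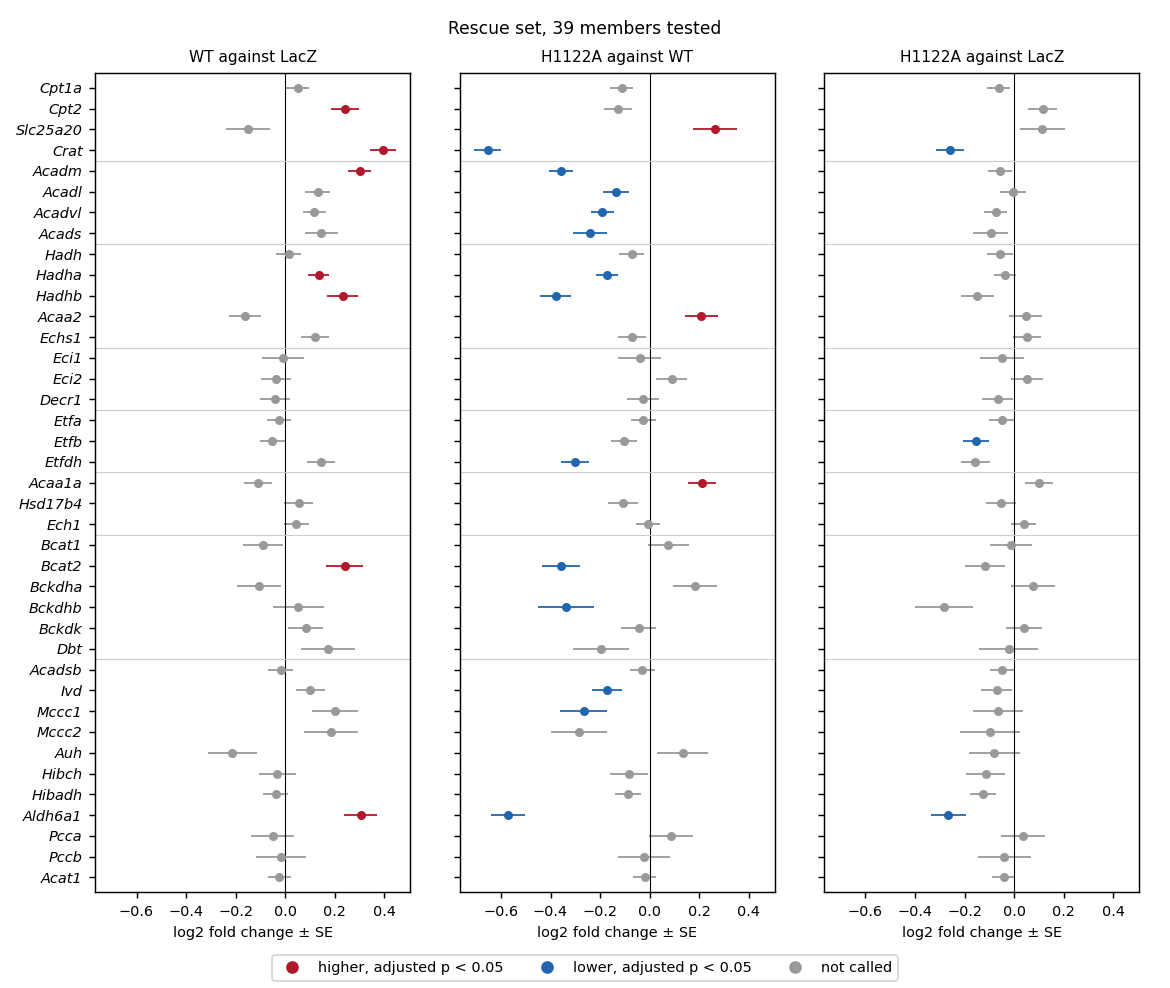
Log2 fold change (points) with standard error (bars) of the 39 tested members in the 3 comparisons of the rescue set, on a common axis, in pathway order. The called members of the left panel (WT against LacZ) lie right of 0, most called members of the middle panel (H1122A against WT) lie left of 0, and 3 members are called in the right panel.

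The study took as targets the genes that fell in sh-Jmjd1a cells, were higher in WT than in LacZ cells, and were lower in H1122A than in WT cells. Of the 39 members, 6 met the 3 calls, namely Crat, Acadm, Hadha, Hadhb, Bcat2 and Aldh6a1, where 2.43% of the 12202 genes tested in both sets did. No member met the opposite 3 calls, as 2.07% of all genes did. Bcat2, Aldh6a1 and Hadha are on a gene list of the study that was drawn from calls on these samples together with histone methylation data not used here, so their place here is not independent evidence. Of the other lower members, 6 were also lower in H1122A than in WT cells without the call against LacZ, 1 (Cpt2) was higher in WT cells without the last call, and 16 were called in sh-Jmjd1a cells only. A call missed in the rescue set does not show that a gene did not respond.

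Crat showed the largest difference between WT and LacZ cells. It was at 87.9, 96.7 and 99.2 CPM in LacZ cells, at 131, 124 and 118 CPM in WT cells, and at 77.7, 77.2 and 81.4 CPM in H1122A cells. The 3 groups did not overlap, with a log2 fold change of 0.39 (SE 0.05, adjusted p = 2.2e-07) for WT against LacZ and -0.65 (SE 0.05, adjusted p = 3.3e-13) for H1122A against WT. Acadm was at 116, 113 and 115 CPM in LacZ cells, at 146, 138 and 138 CPM in WT cells, and at 111, 113 and 105 CPM in H1122A cells. It rose by 0.30 (SE 0.05, adjusted p = 5.5e-06) in WT cells and differed by -0.36 (SE 0.05) between H1122A and WT cells. The mutant and LacZ libraries of Acadm overlapped (-0.06, SE 0.05).

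Aldh6a1 was at 65.6, 60.7 and 61.7 CPM in LacZ cells, at 78.6, 85.6 and 69.9 CPM in WT cells, and at 47.4, 56.0 and 52.6 CPM in H1122A cells. All mutant libraries were below all LacZ libraries, and all WT libraries were above them. The log2 fold changes were 0.30 (SE 0.07, adjusted p = 0.00091) for WT against LacZ and -0.57 (SE 0.07, adjusted p = 9.4e-09) for H1122A against WT. Bcat2 was at 32.5, 33.2 and 35.3 CPM in LacZ cells, at 39.7, 39.3 and 39.7 CPM in WT cells, and at 28.4, 32.7 and 31.6 CPM in H1122A cells. Its rise of 0.24 (SE 0.07, adjusted p = 0.028) was not called by DESeq2 (adjusted p = 0.0796), whereas its difference between H1122A and WT cells was -0.36 (SE 0.08, adjusted p = 0.00034).

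The trifunctional protein genes rose a little. Hadhb was at 54.1, 49.4 and 54.03 CPM in LacZ cells, at 60.03, 64.3 and 60.4 CPM in WT cells, and at 46.96, 46.7 and 48.1 CPM in H1122A cells. Hadha was at 168, 159 and 172 CPM, then at 179, 180.4 and 185 CPM, and then at 161, 167 and 155 CPM. WT libraries were above all others of the set for both genes. Hadhb rose by 0.23 (SE 0.06, adjusted p = 0.0092) and Hadha by 0.13 (SE 0.04, adjusted p = 0.039). Without LacZ replicate 2 the calls of Hadha, Hadhb and Bcat2 were lost, which left Crat, Acadm and Aldh6a1 with the 3 calls and 4 members higher in WT cells. The call of Hadha was also lost without LacZ replicate 1, H1122A replicate 1 or any WT replicate, and with DESeq2 (adjusted p = 0.0617). That of Bcat2 was also lost without LacZ replicate 1, WT replicate 1 or WT replicate 3.

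Cpt1a and Bcat1, which had risen in sh-Jmjd1a cells, were called in none of the rescue comparisons. Cpt1a was at 143, 135 and 142 CPM in LacZ cells, at 139.7, 149 and 146 CPM in WT cells, and at 137, 136 and 128 CPM in H1122A cells. The 3 groups lay close together, with log2 fold changes of 0.05 (SE 0.05) and -0.11 (SE 0.05), neither called. Every H1122A library of Cpt1a was still below every WT library. Bcat1 was at 29.7, 31.6 and 31.1 CPM, at 29.2, 27.3 and 29.5 CPM and at 28.9, 29.4 and 33.2 CPM in the same order. Its differences of -0.09 (SE 0.08) and 0.08 (SE 0.08) were not called, although every WT library of Bcat1 was below every LacZ library. The per-length ratio of Bcat1 to Bcat2 was 0.383 ± 0.0146 in LacZ cells, 0.303 ± 0.0105 in WT cells and 0.413 ± 0.0331 in H1122A cells (SD, n = 3). The WT libraries were thus lowest in this ratio, and all were above the sh-Empty libraries.

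The leading members of other roles, and Ivd and Dbt, were not called between WT and LacZ cells. Etfb was at 116, 118 and 122 CPM in LacZ cells, at 117, 119.9 and 107 CPM in WT cells, and at 103, 109 and 107 CPM in H1122A cells. Eci1 ranged from 28.1 to 35.8 CPM over the 9 rescue libraries with all 3 groups overlapping. Hsd17b4 was at 59.0 to 63.8 CPM in LacZ cells, 63.4 to 64.8 CPM in WT cells and 58.1 to 60.3 CPM in H1122A cells. Ivd, at 50.4% of its sh-Empty mean in sh-Jmjd1a cells, was at 62.1 ± 0.984 CPM in LacZ cells and 66.6 ± 2.22 CPM in WT cells, a log2 fold change of 0.10 (SE 0.06). Dbt was at 14.5 ± 0.613 and 16.5 ± 1.67 CPM (0.17, SE 0.11).

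**Figure D3:**
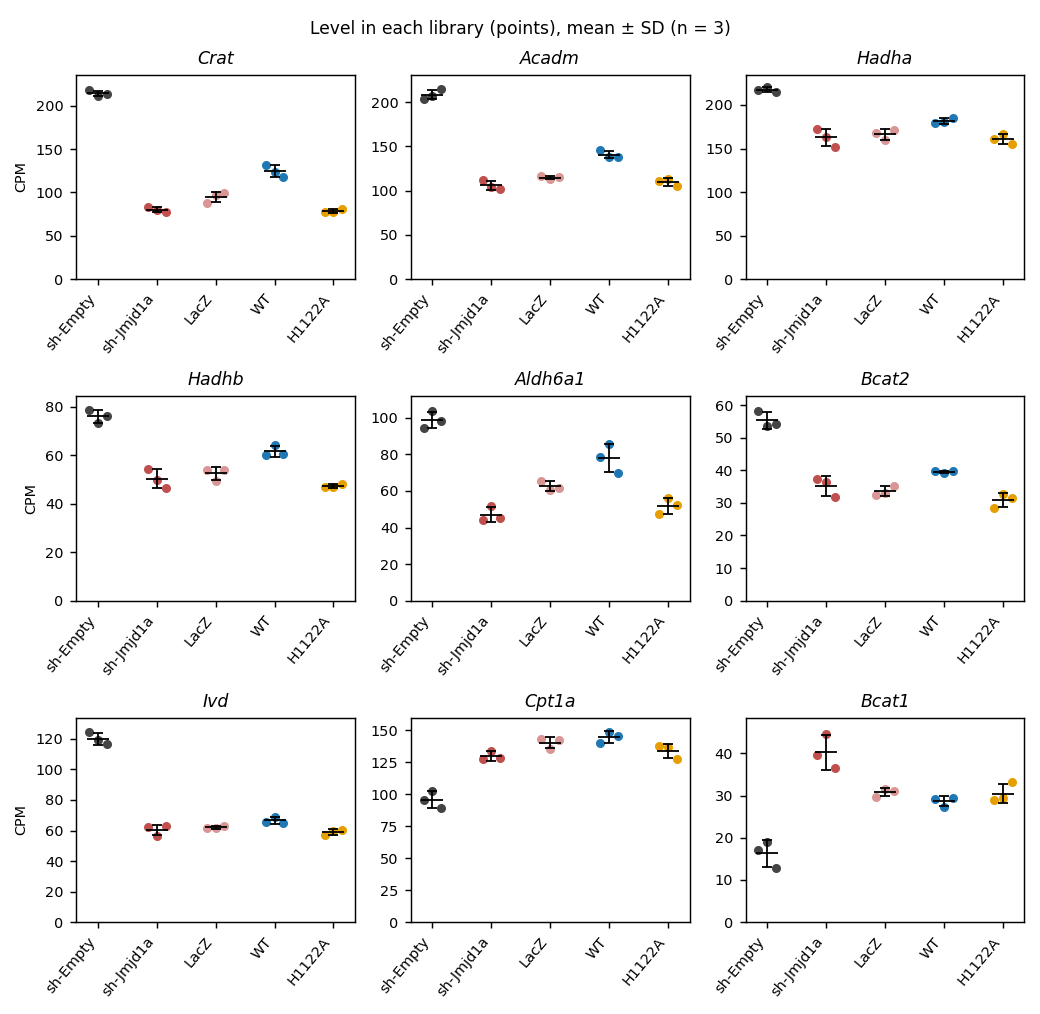
CPM in each library (points) with the mean and SD of 3 replicates (bars) for 9 members in the 5 groups, each axis starting at 0. Crat, Acadm, Hadha, Hadhb, Aldh6a1 and Bcat2 are highest in sh-Empty and next highest in WT cells, whereas Cpt1a and Bcat1 are lowest in sh-Empty cells.

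The levels in WT cells stayed short of those in sh-Empty cells for most of the members. In a fit of all 15 libraries, 23 members were lower and 5 were higher in WT cells than in sh-Empty cells, where 22.8% of all 12758 genes were lower and 22.8% were higher. The groups did not overlap for 32 members, against 53% of all genes. The second infection is shared by every rescue library and by no library of the knockdown set, so the infection and the group cannot be told apart in this comparison. As a share of the sh-Empty mean, Crat was at 37.4% in sh-Jmjd1a cells, 44.2% in LacZ cells, 58.0% in WT cells and 36.8% in H1122A cells. Acadm was at 50.8%, 55.0%, 67.5% and 52.6% in the same order, and Aldh6a1 at 47.6%, 63.4%, 79.0% and 52.6%. Bcat1 was at 247%, 189%, 176% and 187%.

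LacZ cells were compared with sh-Jmjd1a cells in the same fit, and 4 members were higher and 1 was lower. Here too the second infection goes with the set, so the infection and the group cannot be told apart. Crat (0.22, SE 0.05), Etfa (0.18, SE 0.05), Acadsb (0.20, SE 0.05) and Aldh6a1 (0.40, SE 0.07) were higher in LacZ cells, and Bcat1 was lower (-0.40, SE 0.09, adjusted p = 0.0015). Without LacZ replicate 3 the calls of Crat (adjusted p = 0.0603), Acadsb (0.0559) and Etfa (0.123) were lost, which left 1 higher member, Aldh6a1. The call of Etfa was also lost when the fit held only these groups (adjusted p = 0.0570). Of all genes, 3.62% were higher and 3.36% were lower in this comparison. The groups did not overlap for 15 members, against 21.5% of all genes.

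Summed over the 24 fatty acid oxidation members, the level was 2338 ± 9.43 CPM in sh-Empty, 1818 ± 79.0 CPM in sh-Jmjd1a cells, 1925 ± 35.8 CPM in LacZ cells, 2047 ± 43.1 CPM in WT cells and 1864 ± 33.7 CPM in H1122A cells (SD, n = 3). The branched-chain members summed to 1061 ± 1.51, 780.3 ± 25.0, 839 ± 6.24, 859 ± 32.4 and 795 ± 12.5 CPM in the same order. The sums of both pathways in sh-Jmjd1a cells were 77.8% and 73.5% of those in sh-Empty cells. For the branched-chain sum, LacZ and WT libraries overlapped, whereas for fatty acid oxidation they did not.

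Lists of marker genes were compared in the same libraries. All 8 adipocyte markers (Pparg, Cebpa, Fabp4, Adipoq, Plin1, Lpl, Cidec and Lipe) were lower in sh-Jmjd1a cells, with a median log2 fold change of -1.74, all 8 were higher in WT cells than in LacZ cells (median 0.69), and all 8 were lower in H1122A cells than in WT cells (median -1.76). They summed to 5346 to 5427 CPM in sh-Empty, 2663 to 2847 CPM in sh-Jmjd1a, 3442 to 3538 CPM in LacZ cells, 3943 to 4301 CPM in WT cells and 2663 to 2770 CPM in H1122A libraries. Lpl made up most of each sum, at 3935, 3871 and 3881 CPM in sh-Empty cells. Its WT (3193, 3250 and 2970 CPM) and LacZ libraries (2890, 2935 and 2978 CPM) overlapped, unlike those of the other adipocyte markers. Between H1122A and LacZ cells, all 8 adipocyte markers were also lower in H1122A cells (median -0.96). Of 15 genes of mitochondrial import, channels and chaperones, 11 were lower and 1 was higher in sh-Jmjd1a cells, none was called in WT cells against LacZ, and 7 were lower in H1122A cells than in WT cells. In H1122A against LacZ cells, 3 of these 15 were lower and none was higher. Over all genes, 23.9% were lower in sh-Jmjd1a cells, 11.7% in H1122A against WT cells and 4.46% in H1122A against LacZ cells. In the same order, 22.3%, 12.1% and 4.78% were higher. In WT against LacZ cells, 4.98% were higher and 4.52% were lower. The 8 preadipocyte or fibroblast markers were Dlk1, Pdgfra, Thy1, Col1a1, Col3a1, Cd34, Ly6a and Vim. Of these, 7 were tested in the knockdown set, and 4 were higher and 2 (Dlk1 and Ly6a) were lower in sh-Jmjd1a cells. In the rescue set all 8 were tested, and 3 were higher and 1 was lower in WT than in LacZ cells, 3 were higher and 3 were lower in H1122A than in WT cells, and 2 were higher and 1 was lower in H1122A than in LacZ cells. Dlk1 and Ly6a were among those higher in WT than in LacZ cells and lower in H1122A than in WT cells, the directions of the adipocyte markers. The part of these lists in the results for the members was not tested.

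**Figure D4:**
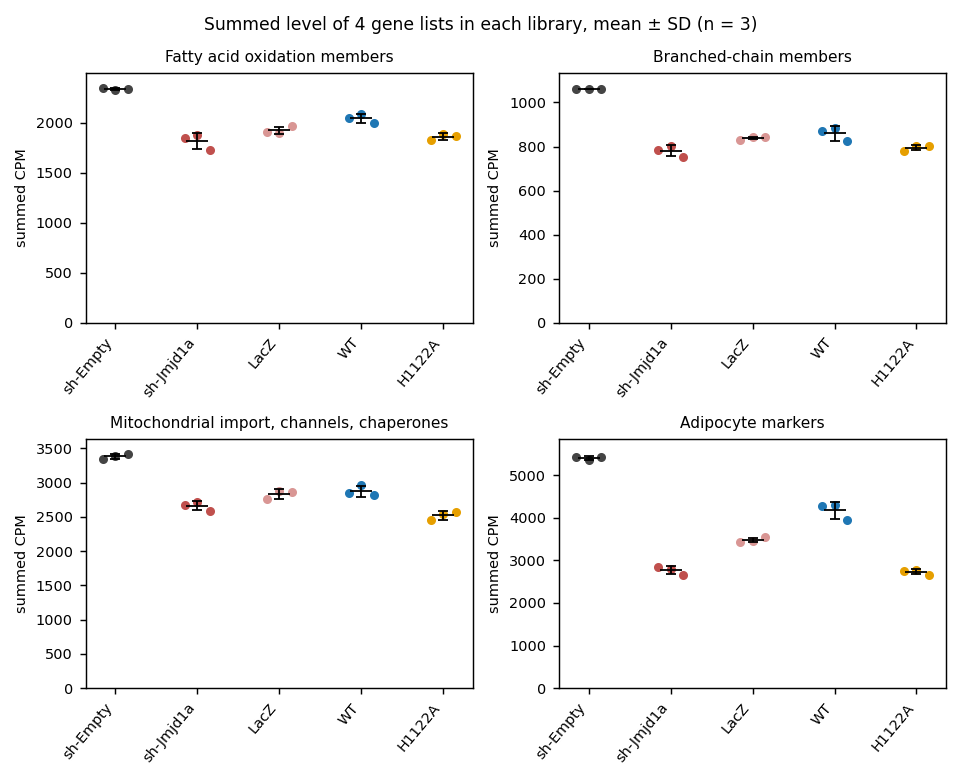
Summed CPM of the 24 fatty acid oxidation members, the 17 branched-chain members, 15 genes of mitochondrial import, channels and chaperones and 8 adipocyte markers in each library (points), with the mean and SD of 3 replicates (bars). All 4 sums are highest in sh-Empty cells, and the adipocyte markers (5397 CPM in sh-Empty cells, 4173 CPM in WT cells and 2731 CPM in H1122A cells) show the largest separation of WT from LacZ and H1122A. Most of the adipocyte marker sum is Lpl.

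Further genes of the same pathways were listed, 66 in all. In sh-Jmjd1a cells 35 of 61 tested were lower and 6 were higher, with a median of -0.31. Of all genes, 23.9% were lower and 22.3% were higher. The largest decreases among them were Klf15 (-2.14, SE 0.47), a transcription factor of amino acid breakdown with 2 to 50 counts per library, Acsl1 (-1.96, SE 0.04), the main long-chain acyl-CoA synthetase of adipocytes, and Ppargc1b (-1.85, SE 0.17), a coactivator of mitochondrial genes. Acsl1 was at 864, 896 and 856 CPM in sh-Empty and at 225, 219 and 228 CPM in sh-Jmjd1a cells. The largest increases were Acot2 (1.26, SE 0.22), a mitochondrial acyl-CoA thioesterase, Slc7a5 (0.73, SE 0.06), the transporter of large neutral amino acids, and Acot9 (0.51, SE 0.07), another thioesterase. Slc7a5 was at 82.5, 79.7 and 72.0 CPM and then at 131, 134 and 123 CPM.

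In the rescue set, 8 of 62 tested were higher and 2 were lower in WT than in LacZ cells, against 4.98% and 4.52% of all genes. In H1122A against WT cells, 17 were lower and 5 were higher, against 11.7% and 12.1% of all genes. Against LacZ, 6 were lower and 1 was higher in H1122A cells, against 4.46% and 4.78% of all genes. Acsl1, Pparg, Ppargc1b, Klf15 and Lpin1 met the 3 calls of the study's rule, as 2.43% of all genes tested in both sets did. Acsl1 was at 356, 335 and 337 CPM in LacZ cells, at 524, 542 and 469 CPM in WT cells, and at 189.8, 196 and 180.4 CPM in H1122A cells. Its 3 groups were well apart, with log2 fold changes of 0.58 (SE 0.04) for WT against LacZ and -1.44 (SE 0.05) for H1122A against WT. Pparg, the nuclear receptor of adipogenesis, was at 76.4, 70.4 and 72.6 CPM in LacZ cells, at 95.4, 97.7 and 88.2 CPM in WT cells, and at 50.3, 55.6 and 50.3 CPM in H1122A cells. Cebpa, a transcription factor that works with it, was at 102, 93.5 and 98.3 CPM, at 176, 172 and 166 CPM, and at 45.4, 43.99 and 52.4 CPM in the same order. For both genes every mutant library was below every LacZ library. In this comparison the groups did not overlap for 8 members, Crat and Aldh6a1 among them, against 25.1% of all genes.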

How the data were processed

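RNA-seq counts were analysed. The deposited values are featureCounts counts per Entrez gene number, without normalization, which the authors made from fastp-trimmed reads placed on mm9 by HISAT2. The annotation and strand setting are not given in the sources used here, and the labels and the paper name different kits, so reads of genes on opposite strands may be shared. Names and upstream sequences came from RefSeq (GRCm38.p6), and gene positions and exon lengths from GENCODE M1 on mm9.

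Counts were filtered with filterByExpr (minimum count 10), scaled by TMM and tested with edgeR 4.0.16 in R 4.3.3 (quasi-likelihood F test, Benjamini-Hochberg over all genes, calls at 0.05). The 6 knockdown and 9 rescue libraries were fitted apart, and comparisons across sets used 1 fit of 15. The fit was also run on simulated data with fewer changed genes than were called here and changes larger than those of most members. That run does not test the small changes reported here. CPM used TMM factors of all 15 libraries. Members, gene lists and comparisons were chosen with earlier results of these data known. All members may be named, and values per library are given for the largest knockdown change of each role, members that met the 3 calls, Cpt1a and Bcat1 beside Bcat2, and members called in opposite directions in sh-Jmjd1a against sh-Empty and H1122A against WT (none). Pparg, Cebpa and, of other pathway genes, the 3 largest changes in each direction and those that met the 3 calls were named. Values per library of Cpt2, Ivd, Acsl1 and Slc7a5 were added after they were seen. Alternatives were DESeq2 1.42.0, RLE size factors, other filters, other fits, a threshold of 0.01, a replicate block and each library left out, and thinning, which was chosen after seeing the data.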

Additional observations from a re-analysis of the deposited data

How the results depend on the processing

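No called member changed direction under any alternative. Calls kept under every alternative were 31 of 33 in sh-Jmjd1a against sh-Empty, 4 of 7 in WT against LacZ, 8 of 16 in H1122A against WT, 1 of 3 in H1122A against LacZ, 21 of 28 in WT against sh-Empty and 2 of 5 in LacZ against sh-Jmjd1a. The cause of the losses was not tested. At an adjusted p under 0.01, 1 member was higher in H1122A than WT, 1 was lower in H1122A than LacZ, 3 were higher in WT than sh-Empty and 2 were higher in LacZ than sh-Jmjd1a. The 3 calls of the study's rule were met by 4 members with DESeq2 or at 0.01 (Bcat2 and Hadha lost) and by 5 with no filter (Hadha lost).

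With 1 library left out in turn, 28 to 29 members were lower in sh-Jmjd1a cells, 4 to 7 were higher in WT than LacZ (4 without LacZ replicate 2), 9 to 13 were lower and 1 to 4 were higher in H1122A than WT (1 without H1122A replicate 1, H1122A replicate 3 or WT replicate 3), and 1 to 3 were lower in H1122A than LacZ (1 without H1122A replicate 1). Across sets, 3 to 5 were higher in WT than sh-Empty (3 without WT replicate 1) and 1 to 5 were higher in LacZ than sh-Jmjd1a (1 without LacZ replicate 3). The 3 calls were met by 3 to 6 members (3 without LacZ replicate 2), and the log2 fold change of Etfa in sh-Jmjd1a cells ranged from -0.039 to 0.0539.

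Replicate numbers are shared between groups, and same-numbered libraries deviated together weakly at most. Their correlations were -0.053 to 0.027 in the knockdown set and -0.005 to 0.065 in the rescue set. Libraries with different numbers gave -0.033 to 0.059 and -0.054 to 0.036. In neither set did every library correlate best with its own number. With the replicate block, sh-Jmjd1a cells had 29 lower and 3 higher members, with Acaa2 lost (adjusted p = 0.0582 from edgeR), and no count of member calls moved by more than 1.5 times. Over all genes, the block raised the calls in the rescue set. They went from 625 higher and 568 lower to 710 and 683 in WT against LacZ. In H1122A against WT they went from 1517 and 1468 to 1673 and 1610. In H1122A against LacZ they went from 600 and 560 to 731 and 682. The knockdown set went from 2741 and 2931 to 2635 and 2790.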
